A study of Homo sapiens with 6 samples.

Results

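NF-kB is a family of transcription factors built from pairs of Rel family proteins, and the genes described here are its 5 subunits with 5 genes that it induces. The 10 genes were taken by symbol (NFKB1, NFKB2, REL, RELA, RELB, NFKBIA, NFKBIE, TNFAIP3, BIRC3 and TNFAIP2) from a table of 63241 genes, and each symbol matched 1 row. In resting cells the inhibitor proteins IkB alpha (NFKBIA) and IkB epsilon (NFKBIE) hold the dimers in the cytoplasm. Signals from receptors of TNF or interleukin 1 activate the IkB kinase, which marks the inhibitors for destruction, and the freed dimers switch on target genes in the nucleus. NFKBIA, NFKBIE, TNFAIP3 and BIRC3 are among those targets and are widely read as a sign of the pathway's activity. NFKBIA, NFKBIE and TNFAIP3 encode proteins that restrain the pathway, and so act as feedback on it. In bladder cancer cells the pathway is known for driving cytokines and survival genes.

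T24, an established bladder cancer line, was transfected with small interfering RNA, either siNC (control, genotype given as WT) or siUSP43 (USP43 knockdown). RNA sequencing gave 3 libraries per group from 2 μg of RNA each, all under 1 batch label. No stimulus of NF-kB is named, and whether the pathway was at rest in these cells was not measured. The labels do not give the time after transfection, the duplex sequences or whether replicates were separate cultures. The p-values below therefore speak only to the spread among these libraries, which may be technical.

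A DNA word that NF-kB binds, in a strict or a broader form, was found in promoter windows of 6 of the 10 genes. RefSeq windows of 300 bases (GRCh38.p14, 250 before to 50 after a start site) were present for 8 of the 10 genes, all but RELB and NFKBIE. The motif GGGA, any base, TTTCC, searched on both strands, was found in windows of NFKB1, NFKB2, REL, NFKBIA and TNFAIP3, which is 5 of those 8, against 0.678% of the 27305 genes in the table (0.558% of 35116 windows). The broader kappaB consensus, of which that motif is a special case, was found in the same 5 and in BIRC3, against 7.09% of genes. The windows of RELA and TNFAIP2 held neither. A selection of the sites is shown, at least 1 for each gene with a match; NFKB2 has 2 further consensus sites and BIRC3 1. Matches to either are in capitals below, and each sequence is 30 bases of the gene's own strand read 5′ to 3′. A match on the other strand appears as its reverse complement.
NFKB1, chr4:102501300-102501329, plus strand: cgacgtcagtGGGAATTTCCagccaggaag
NFKB2, chr10:102394462-102394491, plus strand: aaacgtcatGGGAATTCCCCcctccggggg
NFKB2, chr10:102395674-102395703, plus strand: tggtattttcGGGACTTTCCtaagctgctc
REL, chr2:60881518-60881547, plus strand: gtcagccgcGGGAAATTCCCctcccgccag
NFKBIA, chr14:35404811-35404840, minus strand: tgactggcttGGAAATTCCCcgagcctgac
TNFAIP3, chr6:137867188-137867217, plus strand: ctttGGAAAGTCCCgtGGAAATCCCCgggc
BIRC3, chr11:102317275-102317304, plus strand: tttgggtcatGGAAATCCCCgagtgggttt

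These matches begin 49 bases before the start site in NFKB1, 81 in NFKBIA and 199 in BIRC3, and TNFAIP3 has a pair that begin 67 and 55 bases before it. A match describes the sequence and is not evidence of binding in these cells.

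The libraries held 21430574 to 25577200 gene counts. USP43 checks the knockdown label: it stood at 2.36, 2.09 and 2.08 FPKM (fragments scaled to exonic length and library size) in siNC and at 1.02, 0.67 and 0.80 in siUSP43, a log2 fold change of -1.40 (SE 0.14, edgeR, Benjamini-Hochberg adjusted p = 5.63e-06). Of 11 urothelial and epithelial markers 4 reached a mean of 1 FPKM, namely KRT7, KRT8, KRT18 and KRT19, while KRT5 and KRT20 had no counts, CDH1 had at most 3 and UPK2 at most 5. All 5 mesenchymal markers reached 1 FPKM, with a sum of 739 to 741 FPKM in siNC and 610 to 635 in siUSP43. Within these lists the mean of FN1 went from 214 to 77.7 FPKM and SPARC from 67.2 to 108, while VIM stood at 438 and 419. Epithelial markers went both ways. KRT7 went from 236 to 184 and KRT19 from 12 to 9.37, while KRT8 went from 88 to 96.9 and KRT18 from 198 to 216. Below 1 FPKM in siNC, EPCAM went from 0.587 to 1.24 and GATA3 from 0.43 to 0.257. The part of such differences in the members' results was not tested. No leukocyte marker reached a mean of 1 FPKM: PTPRC had at most 2 counts and CD3E had 0. The summed level of the 7 was 1.03 to 1.30 FPKM in siNC and 0.54 to 0.66 in siUSP43, most of it CD14. The 8 fibroblast and endothelial markers summed to 1.19 to 1.61 and 1.25 to 1.31 FPKM. Fewer cells expressing a gene and less RNA per cell cannot be told apart in such bulk libraries.

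Among the 10 genes, NFKBIA, NFKBIE, both of the most abundant subunits and TNFAIP2 fell in siUSP43, and no tested member rose. A gene was tested where its mean was at least 1 FPKM, which 9 of the 10 passed, REL lying below it at 0.18 FPKM. Of the 9, NFKB2, RELA, NFKBIA, NFKBIE and TNFAIP2 fell (edgeR quasi-likelihood test, Benjamini-Hochberg adjusted p under 0.05 over 11417 genes), and NFKB1, RELB, TNFAIP3 and BIRC3 did not pass. Over all tested genes 28.1% fell and 28.0% rose, 56.1% in all. A count of 5 changed in 9 is near that 56.1%, so the number of changed members alone does not set them apart. All 5 fell, and 0 of the 9 rose. The median log2 fold change was -0.23 over the 9 members and -0.01 over all tested genes. FPKM values of the 2 groups did not overlap for 6 of the 9, against 62.2% of all tested genes.

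**Figure D1:**
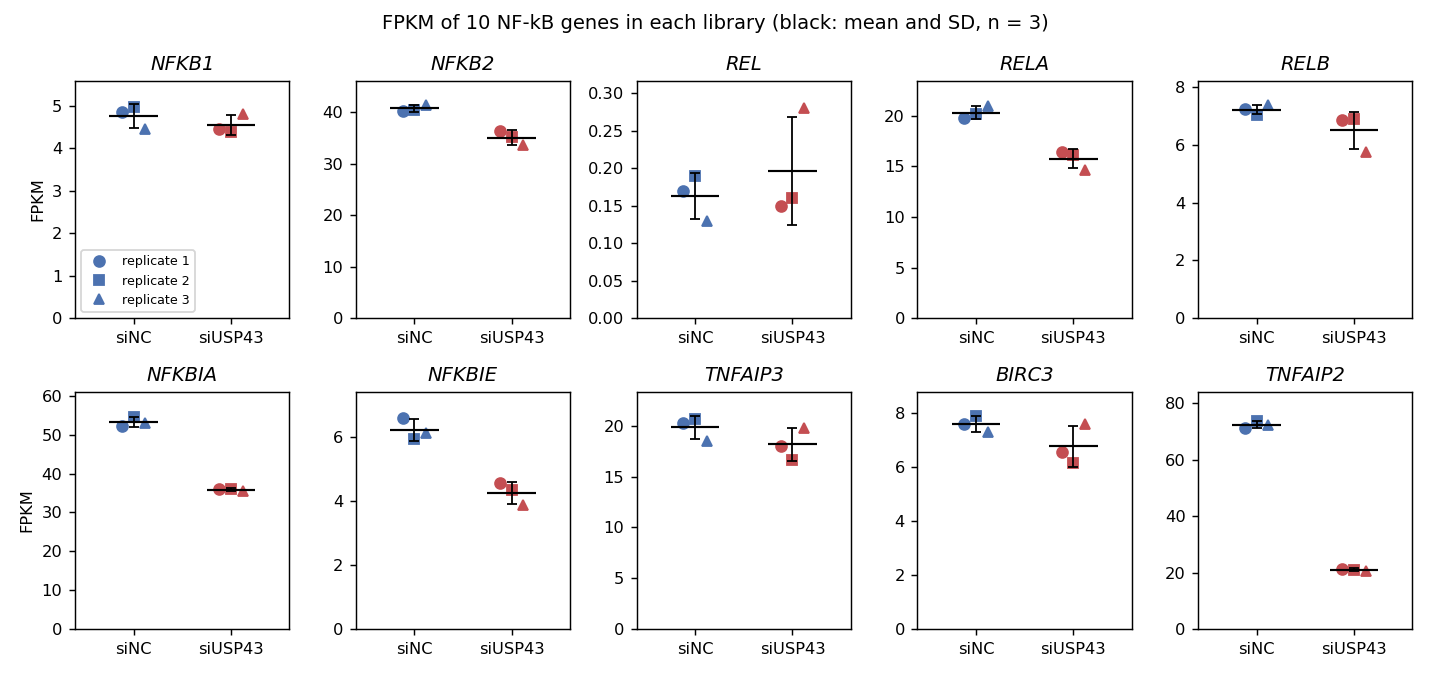
FPKM (linear axis from 0) of the 10 genes in each of the 3 siNC (blue) and 3 siUSP43 (red) libraries, with marker shape giving the replicate number and black bars the mean and SD. TNFAIP2, NFKBIA, NFKBIE, RELA, NFKB2 and RELB have groups that do not overlap, and replicate 3 of siUSP43 is the highest of its group for NFKB1, REL, TNFAIP3 and BIRC3.

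Among the subunits, RELA and NFKB2 fell. RELA (ENSG00000173039, GRCh38 chromosome 11, 65653599 to 65663090, minus strand) encodes p65, the subunit with a strong activation domain. It stood at 19.76, 20.21 and 20.98 FPKM in siNC and 16.39, 16.15 and 14.66 in siUSP43. Every siUSP43 library lay below every siNC library, and the log2 fold change was -0.39 (SE 0.05, 95% interval -0.51 to -0.27, edgeR adjusted p = 9.69e-05), or 23.5% lower. NFKB2 (ENSG00000077150, chromosome 10, 102394110 to 102402524, plus strand) encodes p100, which is both an inhibitor and the precursor of the p52 subunit of the non-canonical pathway. Its values were 40.27, 40.40 and 41.44 FPKM against 36.37, 35.13 and 33.56. These groups were also separate, at a log2 fold change of -0.23 (SE 0.05, interval -0.33 to -0.13, edgeR adjusted p = 9.51e-04).

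The other subunits gave no call. RELB (ENSG00000104856, chromosome 19, 45001461 to 45038192, plus strand), the usual partner of p52, stood at 7.24, 7.05 and 7.38 FPKM in siNC and 6.87, 6.90 and 5.77 in siUSP43. The groups did not overlap, but replicate 3 of siUSP43 lay well below the other two, and the log2 fold change of -0.17 (SE 0.08, interval -0.34 to 0.00) did not pass (edgeR adjusted p = 0.0901). Without that library it was -0.09 (edgeR adjusted p = 0.288), and without replicate 2 of siUSP43 it was -0.21 (edgeR adjusted p = 0.049). NFKB1 (ENSG00000109320, chromosome 4, 102501330 to 102617302, plus strand), which encodes p105 and its product p50, the usual partner of p65, stood at 4.85, 4.98 and 4.45 FPKM against 4.46, 4.37 and 4.81. The groups overlapped, with a log2 fold change of -0.08 whose interval ran from -0.21 to 0.04, so a decrease of the size seen in RELA lay outside it.

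REL (ENSG00000162924, chromosome 2, 60881491 to 60931612, plus strand), which encodes c-Rel, a subunit best known from lymphocytes, was the least abundant of the 10. Its counts were 82, 96 and 64 in siNC and 76, 69 and 143 in siUSP43. Replicate 3 of siUSP43 stood apart from the other 5 libraries, and the groups overlapped. With no filter on low values the log2 fold change was 0.26 (edgeR adjusted p = 0.354).

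Per exonic length, the subunits ranked in siNC as NFKB2, RELA, RELB, NFKB1 and REL, and the order was the same in siUSP43. Neighbours in that order did not overlap within either group: at the closest step, RELB and NFKB1, the lowest RELB value in siUSP43 was 5.77 FPKM and the highest NFKB1 value 4.81. The summed level of the 5 was 72.3, 72.8 and 74.4 FPKM in siNC and 64.2, 62.7 and 59.1 in siUSP43, so the siUSP43 mean was 84.8% of the siNC mean (exact two-sided permutation test, p = 0.1, the smallest that 3 against 3 allows). NFKB2 made up 55.6 ± 0.138% of that sum in siNC and 56.5 ± 0.410% in siUSP43 (SD, n = 3 each). RELA held 27.8 ± 0.436% and 25.4 ± 0.488%, a difference of -2.40 percentage points, with the groups separate (exact two-sided permutation test, p = 0.1, adjusted p = 0.167 over 5 shares). NFKB1 moved from 6.51 ± 0.461% to 7.35 ± 0.685%, RELB from 9.87 ± 0.173% to 10.5 ± 0.644% and REL from 0.224 ± 0.0442% to 0.321 ± 0.133%, with exact permutation p = 0.1, 0.3 and 0.5.

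These shares depend on the length used, because the deposited exonic size adds up the exons of all isoforms: it is 15679 bases for NFKB1, whose longest coding transcript in GENCODE release 29 has 4085. With those transcript lengths in place, a choice made after the values were seen, NFKB1 held 14.1% and RELB 7.30% of the siNC sum, so their order turned. NFKB2 and RELA still led, at 51.4% and 26.9%, and the RELA share still differed by -2.53 percentage points.

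**Figure D2:**
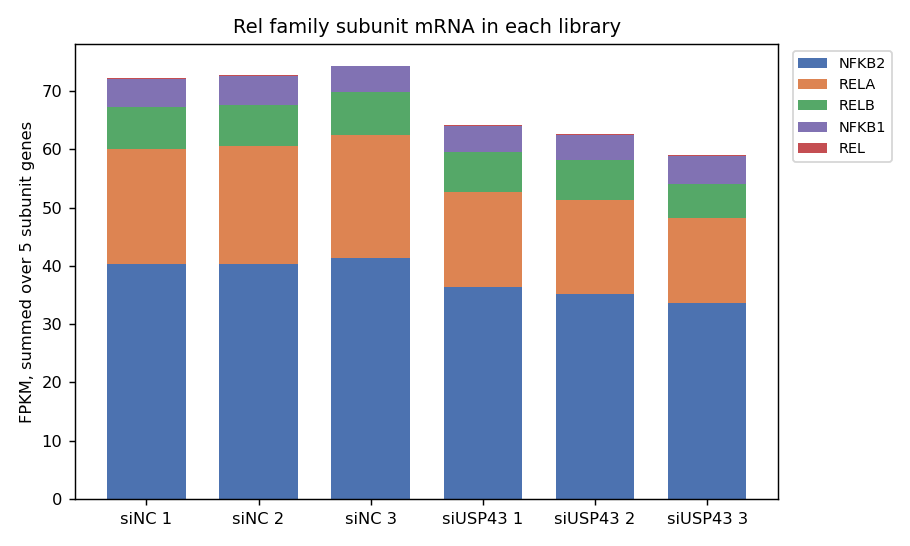
Stacked bars give the FPKM of the 5 subunit genes in each library, on a linear axis from 0, with REL (0.13 to 0.28 FPKM) too thin to see. The 3 siUSP43 bars end at 59.1 to 64.2 FPKM and the 3 siNC bars at 72.3 to 74.4, and the NFKB2 and RELA segments account for most of each bar.

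Both IkB genes fell by about the same amount. NFKBIA (ENSG00000100906, chromosome 14, 35401079 to 35404749, minus strand), the inhibitor that p65 dimers themselves induce, stood at 52.19, 54.59 and 53.14 FPKM in siNC and 36.05, 36.08 and 35.60 in siUSP43. The siUSP43 libraries were tightly grouped, with an SD of 0.269, and lay far below the siNC ones, at a log2 fold change of -0.59 (SE 0.04, interval -0.68 to -0.49, edgeR adjusted p = 5.04e-07), or 33.4% lower. NFKBIE (ENSG00000146232, chromosome 6, 44258166 to 44265788, minus strand), whose product answers the pathway more slowly than IkB alpha, stood at 6.60, 5.93 and 6.13 FPKM against 4.55, 4.34 and 3.87. Its groups were separate too, with a log2 fold change of -0.57 (SE 0.09, interval -0.76 to -0.37, edgeR adjusted p = 1.91e-04). The intervals of both genes lay wholly below the log2 fold change of NFKB2.

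TNFAIP3 and BIRC3, targets whose products act through ubiquitin, gave smaller differences that did not pass. TNFAIP3 (ENSG00000118503, chromosome 6, 137867214 to 137883314, plus strand) encodes A20, which ends signalling by removing and adding ubiquitin chains on receptor complexes. It stood at 20.32, 20.72 and 18.55 FPKM in siNC and 18.03, 16.64 and 19.83 in siUSP43. The groups overlapped through replicate 3 of each, and the log2 fold change was -0.14 (SE 0.06, interval -0.29 to 0.00, edgeR adjusted p = 0.0752). BIRC3 (ENSG00000023445, chromosome 11, 102317484 to 102339403, plus strand) encodes cIAP2, a ubiquitin ligase of the TNF receptor complex. Its values were 7.60, 7.88 and 7.28 FPKM against 6.55, 6.14 and 7.60. Replicate 3 of siUSP43 equalled replicate 1 of siNC, and the log2 fold change was -0.18 (SE 0.07, interval -0.34 to -0.02, edgeR adjusted p = 0.055). Without replicate 3 of siUSP43 both passed, at -0.21 for TNFAIP3 and -0.27 for BIRC3 (edgeR adjusted p = 0.00259 and 5.79e-04). TNFAIP3 also passed without replicate 3 of siNC, at -0.19 (edgeR adjusted p = 0.043), and with upper quartile scaling, at -0.18 (0.022). BIRC3 passed with upper quartile scaling, at -0.22 (edgeR adjusted p = 0.0185), and with no filter on low values, at -0.17 (0.0346). In the other direction, without replicate 2 of siUSP43 the values shrank to -0.09 for TNFAIP3 and -0.12 for BIRC3 (edgeR adjusted p = 0.242 and 0.178).

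TNFAIP2 (ENSG00000185215, chromosome 14, 103121476 to 103137439, plus strand) fell most of the 10. It is a TNF-induced gene whose product, M-Sec, resembles a subunit of the exocyst and remodels membrane protrusions. It was the most abundant of the 10 in siNC, at 71.31, 73.84 and 72.18 FPKM, and stood at 21.43, 21.02 and 20.50 in siUSP43. The siUSP43 level was 28.6% of the siNC level, a log2 fold change of -1.80 (SE 0.04, interval -1.90 to -1.71, edgeR adjusted p = 1.29e-10), and 0.342% of tested genes had a log2 fold change as low or lower.

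**Figure D3:**
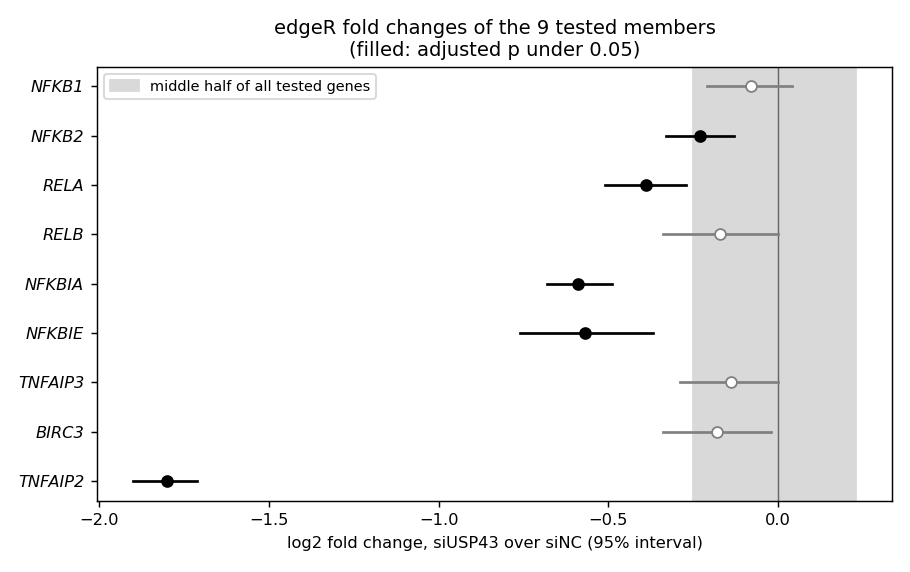
Points give the edgeR log2 fold change (siUSP43 over siNC) of the 9 tested genes with its 95% interval, filled where the adjusted p was under 0.05, and the grey band spans the first to the third quartile of all tested genes (-0.25 to 0.23). TNFAIP2 at -1.80, NFKBIA at -0.59, NFKBIE at -0.57 and RELA at -0.39 lie outside the band with their whole intervals.

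Ratios within a library, in which the scaling between libraries cancels, show whether 2 members moved by different amounts. The ratio of NFKBIA to RELA FPKM was 2.64, 2.70 and 2.53 in siNC and 2.2, 2.23 and 2.43 in siUSP43, so the inhibitor was lower against the subunit it binds in all 3 siUSP43 libraries. On the log2 scale the ratio differed by -0.20 (exact two-sided permutation test, p = 0.1, adjusted p = 0.12 over 6 ratios). Leaving out a library gave -0.24 to -0.17. NFKBIE to RELA differed by -0.18, from a mean log2 ratio of -1.71 to -1.89, with separate groups, and by -0.12 without replicate 1 of siNC. TNFAIP2 to NFKBIA showed the largest shift: 1.37, 1.35 and 1.36 in siNC against 0.594, 0.583 and 0.576 in siUSP43, a log2 difference of -1.22 that stayed at -1.23 to -1.21 with any library left out. RELA to NFKB1 differed by -0.30 and NFKBIA to NFKB2 by -0.35, each with separate groups and p = 0.1 by the same exact test. NFKB2 to NFKB1 differed by -0.15 with overlapping groups (exact permutation p = 0.2). Replicate 3 of each group weighs on both ratios to NFKB1: without that of siUSP43 they were -0.21 for RELA and -0.08 for NFKB2, and without that of siNC -0.23 and -0.09. A ratio cancels the scaling of a library but not a trend with gene size, described next, and with that trend removed the log2 fold changes of RELA, NFKB2 and NFKB1 were -0.38, -0.22 and -0.16. Only NFKBIA to RELA was planned, and the other 5 were added after the values were seen.

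Spread within siUSP43 followed gene size. Replicate 3 of siUSP43 was the highest of its group for REL, NFKB1, BIRC3 and TNFAIP3, which have the 4 largest exonic sizes of the 10 (17129, 15679, 7484 and 6443 bases). It was the lowest of its group for the other 6, whose sizes run from 2581 to 5583 bases. Against the mean of replicates 1 and 2 on the log2 CPM scale (counts scaled to library size), it stood at 0.83 for REL, 0.26 for BIRC3, 0.19 for TNFAIP3 and 0.12 for NFKB1, and at -0.26 for RELB, -0.20 for NFKBIE and -0.15 for RELA. Over all 11417 tested genes the same difference had a median of -0.09 below 1500 bases and -0.11 at 1500 to 3000 bases, and rose from there to 0.11 above 9000 bases, with a Spearman correlation of 0.37 across genes. Replicates 1 and 2 of siUSP43, each set against the rest of the group, gave correlations of -0.16 and -0.33. Replicate 2 stood at -0.19 for BIRC3 and -0.17 for TNFAIP3. Each value depends on the other libraries of the group, so the trend cannot be placed in a single library. Genes are not independent replicates, and all share these libraries. Replicate 3 of siNC had the opposite sign to replicate 3 of siUSP43, with a correlation of -0.28, against 0.2 and 0.13 for siNC replicates 1 and 2. In siNC, replicate 3 was the lowest of its group for the same 4 genes.

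When a trend on exonic size was removed from each library, an alternative added after the data were seen, 8 of the 9 tested members fell. NFKB1 was then at -0.16 (edgeR adjusted p = 0.00892), TNFAIP3 at -0.15 (adjusted p = 0.0375) and BIRC3 at -0.20 (adjusted p = 0.0136), while RELB was at -0.13 and did not pass. The calls of the other 5 held, with TNFAIP2 at -1.79 and NFKBIA at -0.56. Over all genes 6699 passed in that fit. Each trend was taken against the mean over the libraries of both groups, so a size trend between the groups was removed too. In the main fit the median log2 fold change was -0.09 below 1500 bases and 0.06 above 9000 bases. NFKB1 entered at 15679 bases, against 4085 for its longest coding transcript, so its gained call depends on the size used.

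**Figure D4:**
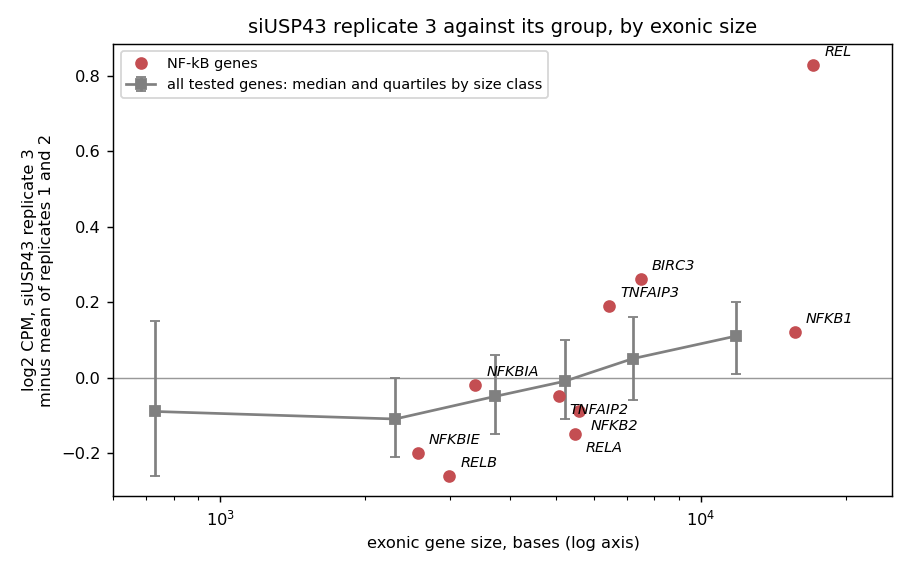
The horizontal axis is exonic gene size in bases (log axis), and the vertical axis is log2 CPM of siUSP43 replicate 3 minus the mean of replicates 1 and 2. Red points are the 10 NF-kB genes, and grey squares with bars are medians and quartiles of all tested genes in 6 size classes; the 4 longest members lie above 0 and the other 6 below it.

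Short words in the 3′ UTR were found in 4 members. In the series as a whole, the 7-mers GGATCCA and GATCCAA were picked out from these same fold changes as words frequent in genes that fell, so their presence is a description and supports nothing about the fall. They lie in a 3′ UTR of TNFAIP2, RELA, REL and BIRC3, and in none of the other 6 members. GENCODE release 29 coding transcripts (GRCh38) were searched, and in each of these genes only some of them held a site. BIRC3 carries GATCCAA, while TNFAIP2, RELA and REL carry GGATCCA. The sites, on the gene's strand with the 7-mer in capitals, are shown because the member that fell most carries one.
TNFAIP2, chr14:103137384-103137413, plus strand: tatgttgaacaGGATCCAggtttttatagc
RELA, chr11:65653779-65653808, minus strand: ggctctctccaGGATCCAgaaggggtttgg
REL, chr2:60931082-60931111, plus strand: ggaatatttgaGGATCCAtttgtggaactg
BIRC3, chr11:102338453-102338482, plus strand: ttcgtaatgaaGATCCAAaattacagggga

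Among 10049 tested genes whose annotated 3′ UTR had 50 bases or more, 11.9% held such a word. Of the genes with a word 44.7% fell and 22.9% rose, against 27.6% and 31.1% of those without one. The words were picked for being frequent in genes that fell, so this difference follows from that choice and is no separate result. UTR lengths were not matched. Of the 4 members with a site, TNFAIP2 and RELA fell, BIRC3 did not pass and REL was not tested, while NFKBIA, NFKBIE and NFKB2 fell without one. The part of these words in the members' changes was not tested.

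Genes with the kappaB word in a promoter were counted too. Of 71 tested genes with that motif (GGGA, any base, TTTCC) in a RefSeq window, 31 fell and 13 rose (43.7% and 18.3%), with a median log2 fold change of -0.14, against 28.7% and 30.3% and a median of 0.00 for 8516 tested genes without it. The 71 include 4 of the members, and no count without these 4 was made. With the broader consensus 252 of 780 fell and 205 rose (32.3% and 26.3%), with a median of -0.03. The 7807 tested genes without it lay near those shares, at 28.5% and 30.6%, with a median of 0.01. Both counts, by motif and by consensus, were added after the members' values were seen. The part of the motif in the members' changes was not tested.

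The rest of the pathway was described with 6 lists of 117 genes, chosen with earlier results of these data known. Of the 98 tested, 24 rose (24.5%) and 44 fell (44.9%), with a median log2 fold change of -0.11. Cytokine and chemokine genes, the secreted targets of NF-kB, fell together: of 14 tested 12 fell (85.7%) and 1 rose (7.14%), against 28.1% and 28.0% of all tested genes, with a median of -0.69. CCL20, a chemokine for lymphocytes and dendritic cells, stood at 5.18 ± 0.0900 FPKM in siNC and 1.76 ± 0.221 in siUSP43 (SD, n = 3), with a log2 fold change of -1.58. CXCL3, a neutrophil chemokine, and CSF1, the macrophage growth factor, were at -0.99 and -0.96. CSF3, the granulocyte growth factor, rose, at 0.25, from 110 ± 2.89 to 132 ± 8.52 FPKM.

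Targets that are not cytokines went both ways, with 7 that fell and 6 that rose of 19 tested (36.8% and 31.6%), near the shares of all tested genes, and a median of -0.03. PLAU, the urokinase gene, fell from 235 ± 2.07 to 115 ± 1.81 FPKM (log2 fold change -1.05), IRF1, an interferon response factor, was at -1.03 and NINJ1, a membrane adhesion gene, at -0.79. F3, the tissue factor gene, rose from 82.3 ± 1.15 to 178 ± 3.52 FPKM (log2 fold change 1.09), DRAM1 was at 0.61 and PTX3, a secreted pattern recognition protein, at 0.51. IRF1, PLAU and PTX3 overlap other tested genes, and because the sources do not say whether counting used strand, reads of such neighbours cannot be told apart.

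Upstream of the subunits, receptors and ligands fell more often than they rose, 7 against 2 of 12 tested, with a median of -0.34. Their shares were 58.3% and 16.7%, against 28.1% and 28.0% of all tested genes. CD40, a receptor of the non-canonical pathway, fell from 11.4 ± 0.797 to 5.69 ± 0.176 FPKM (log2 fold change -1.02), the death receptor gene TNFRSF10B was at -0.68 and IL1B at -0.52. IL1RAP, the shared chain of the interleukin 1 receptor, rose from 3.45 ± 0.285 to 6.57 ± 0.547 FPKM (0.92), and IL1A was at 0.39. Adaptors and ubiquitin ligases gave 8 that rose and 5 that fell of 22 tested, with a median of 0.04. Those shares, 36.4% and 22.7%, lay near the 28.0% and 28.1% of all tested genes. TRAF3 and TRAF2, which together with the cIAP proteins restrain the non-canonical kinase, rose, at 0.65 and 0.57, and CARD10, a scaffold of the CBM complex, rose at 0.38. UBE2N, the conjugating enzyme for ubiquitin chains that carry signals, MYD88, the Toll and interleukin 1 receptor adaptor, and TRAF1 fell, at -0.62, -0.39 and -0.48. TNFRSF10B and UBE2N overlap other tested genes.

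Among the kinases 6 fell and 3 rose of 12 tested, with a median of -0.18. These shares were 50% and 25%, against 28.1% and 28.0% of all tested genes. IKBKB, the catalytic IkB kinase beta of the canonical pathway, fell from 4.72 ± 0.212 to 2.90 ± 0.0557 FPKM, a log2 fold change of -0.72 (SE 0.06, edgeR adjusted p = 1.19e-06). MAP3K3 and MAP3K8, kinases that feed into it, were at -0.62 and -0.58. MAP3K14, the kinase of the non-canonical pathway, rose, at 0.28. IKBKG, the regulatory subunit NEMO, stood at 2.13, 2.05 and 2.15 FPKM in siNC and 2.56, 4.23 and 2.35 in siUSP43, and its log2 fold change of 0.50 rested on replicate 2 of siUSP43: without that library it was 0.20 (edgeR adjusted p = 0.0797). The call also ended without any 1 of the siNC libraries and in the DESeq2 and limma fits, with adjusted p from 0.0532 to 0.0989. IKBKG also has a near-identical pseudogene copy, so the origin of its reads is uncertain. TAB1, an adaptor of the kinase TAK1, was at 0.20, a call that ended without replicate 1 or 2 of siNC or replicate 1 of siUSP43 (edgeR adjusted p = 0.08, 0.0672 and 0.0687), with the replicate number as a block (0.0591) and with upper quartile scaling (0.0515).

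Inhibitors outside the 10 were mixed, with 7 that fell and 4 that rose of 19 tested and a median of -0.01. The shares, 36.8% and 21.1%, lay near the 28.1% and 28.0% of all tested genes. NFKBIB, the gene of IkB beta, rose from 5.01 ± 0.575 to 7.36 ± 0.352 FPKM (log2 fold change 0.54, SE 0.09, edgeR adjusted p = 5.00e-04), opposite in sign to both NFKBIA and NFKBIE. NKIRAS2 and NKIRAS1, small Ras-like proteins that bind IkB, were at 0.45 and 0.28. BCL3, an atypical IkB protein, fell, at -0.70, COMMD1, which promotes the loss of p65, at -0.68, and TNIP1, a partner of A20, at -0.52. NFKBIB, NKIRAS1 and NKIRAS2 overlap other tested genes.

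**Figure D5:**
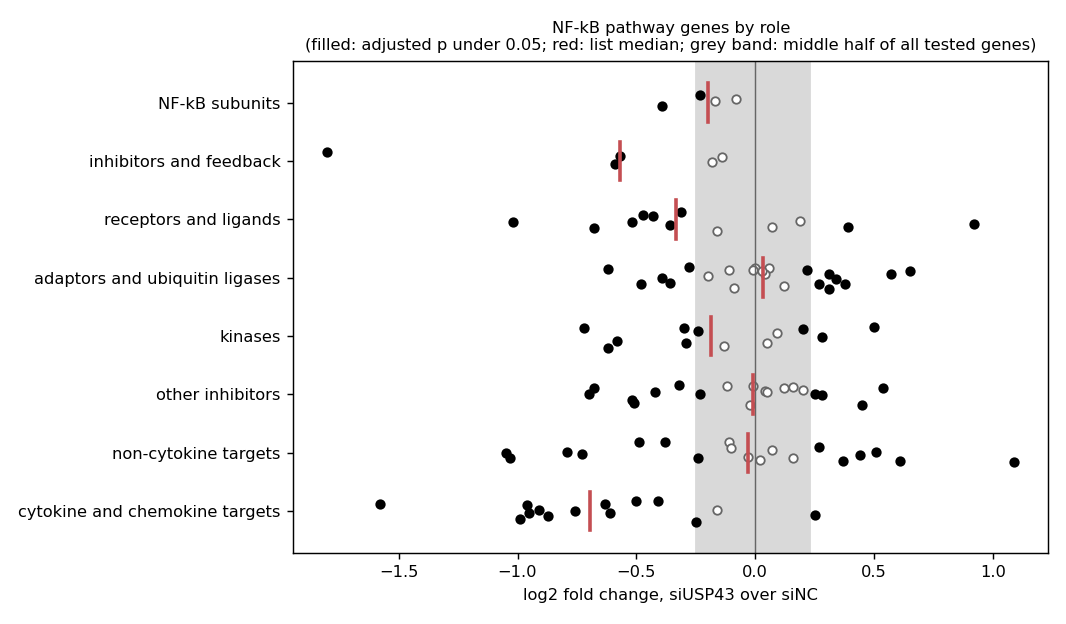
Each point is the log2 fold change (siUSP43 over siNC) of a tested gene, in rows by role, filled where the edgeR adjusted p was under 0.05, with the row median in red and the quartile range of all tested genes in grey. Cytokine and chemokine targets lie furthest left, with a median of -0.69, and rows for adaptors and for other inhibitors centre near 0.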

How the data were processed

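The authors deposited raw counts and FPKM per gene, per the file headers, made with cutadapt 2.6 and HISAT2 2.2.1 on GRCh38, per the submitters' processing notes. Which counter, annotation release and strand setting were used, and how reads with several alignments were handled, is not given in the sources used here. FPKM as deposited uses library totals 1.18 to 1.19 times the summed counts and the exonic gene size in the table. Counts were tested with edgeR 4.0.16 in R 4.3.3 (quasi-likelihood, TMM, group as the only term, two-sided) over 11417 genes with a mean of at least 1 FPKM, USP43 being kept at any level. Adjusted p-values are Benjamini-Hochberg over those genes, and a gene was called changed under 0.05. The SE is the log2 fold change over the root of the F statistic, and intervals are 95%. Shares and ratios of FPKM were compared by exact permutation.

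The members and lists were chosen with earlier results of these data known. Named genes are USP43, the 10 members and, in each pathway list, up to 3 changed genes with the largest rise and 3 with the largest fall. Promoter windows came from RefSeq (GRCh38.p14), and of 12 windows of members 11 ended inside a GENCODE release 29 transcript of the gene. Alternatives were edgeR with other scalings, filters and a replicate block, DESeq2 1.42.0, limma 3.58.1 (voom, or log2(FPKM + 1) and log2(FPKM + 0.1)), and each library left out. No pair of libraries was as alike as counting noise, with a chi-square per degree of freedom of 2.28 to 14.9 within groups. The edgeR step was tested on simulated data with known fold changes.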

Additional observations from a re-analysis of the deposited data

How the results depend on the processing

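Of 761 refitted log2 fold changes of 43 named genes, 738 kept their direction and side of the threshold, 13 lost the call, 10 gained one and 0 changed sign. The 13 lost calls were those of IKBKG and TAB1, and the 10 gained were those of NFKB1, RELB, TNFAIP3 and BIRC3. The calls of NFKB2, RELA, NFKBIA, NFKBIE and TNFAIP2 held in all alternatives, with ranges of -0.27 to -0.20, -0.42 to -0.34, -0.62 to -0.56, -0.62 to -0.46 and -1.84 to -1.74. Those without a call ranged from -0.16 to -0.05 for NFKB1, -0.21 to -0.09 for RELB and TNFAIP3 and -0.27 to -0.12 for BIRC3. The count of members that fell was 5 to 7 in the alternatives other than the exonic size trend, which gave 8. It was 7 with upper quartile scaling, which moved the median of all genes to -0.04. With a mean of at least 5 FPKM required, 3781 genes of the 6245 then tested passed, since fewer genes entered, and NFKB1 had no value there. Same-numbered libraries did not deviate together (correlations of -0.009, -0.111 and -0.237), so the numbers were not treated as pairs. With the replicate block 5616 genes passed, 5 members fell as before, and the paired exact test of the NFKBIA to RELA ratio and of the RELA share gave p = 0.25, the smallest that 3 pairs allow. Depth limits REL, with 64 to 143 counts per library.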
